A study of Mus musculus with 18 samples.

Results

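Mouse retinas detached by an injection of saline under the retina were compared 24 h and 2 h after the injection, on 3 Affymetrix arrays per time. These 6 arrays were chosen by their titles from the 18 of the series, which fall into 6 groups of 3. All groups were Balb/cJ mice, an albino strain. The saline groups received 1 uL of saline and were taken at 2 h, 24 h or 7 d, and the matching INS37217 groups received the same volume with 10 uM INS37217, a P2Y2 receptor agonist given to speed reattachment. Groups follow the titles: the source names of 8 of the 9 INS37217 arrays, and of saline 7 d replicate 2, name another group, and those of the 6 arrays compared match. Each array carried 1 RNA pool of more than 5 retinas, and the pools are described as biological replicates. No uninjected retina was among the 18 arrays, so the 2 h level is an injured level and not a resting one. According to the submitters the retina lies back in place but is still folded at 24 h. No source used here gives the ages of the animals. In pooled whole retina, fewer cells of a type and less RNA per cell cannot be told apart.

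The retina answers detachment in a known order. Cells first switch on immediate early transcription factors and release cytokines and chemokines, of which the gp130 family (interleukin 6, leukaemia inhibitory factor) acts on Mueller glia and photoreceptors through STAT3. Mueller glia, the radial support cells that recycle glutamate and retinoids, then turn reactive and fill with intermediate filaments, while photoreceptors cut off from the pigment epithelium lose outer segment material.

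All values are deposited log2 signals, which lie between 2.83 and 14.15 over the 18 arrays. A gene is given by the probe set with the highest mean, and a difference is the 24 h mean minus the 2 h mean in log2 units, so that a difference of 1 is 2-fold. It was fitted with limma across 22626 probe sets with the replicate number as a block, and a gene was called where its Benjamini-Hochberg adjusted p was under 0.05. The adjusted p values below come from that fit unless they are named as those without the block.

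Of the probe sets, 6564 (29.0%) were called, 3638 (16.1%) higher and 2926 (12.9%) lower at 24 h. Of 12393 genes, 1758 (14.2%) were called higher and 1731 (14.0%) lower, and the 3 values at 24 h did not overlap the 3 at 2 h in 23.9%. At least 2-fold changes were called for 159 genes upward (1.28%) and 101 downward (0.815%). The median difference over all genes was -0.05, and -0.09 when arrays were set to equal medians, which turned the split of probe sets to 3198 higher and 3966 lower. Without the block 1714 probe sets were called, 1051 higher and 663 lower, all of them among the 6564, and 497 genes (4.01%) were higher and 397 (3.20%) lower. Counts in gene lists below stand against these shares, 14.2% higher and 14.0% lower with the block and 4.01% and 3.20% without it. Without saline 2 h replicate 2 the count was 4360. The replicate 1 arrays stood apart, correlating with the other arrays of their time at 0.9756 to 0.981, against 0.9966 and 0.995 between replicates 2 and 3. Calls with replicates 2 and 3 of every group alone numbered 6622.

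The 3 prime minus 5 prime signal of the array's control probe sets, which grows as RNA is degraded, also differed between 2 h and 24 h in saline retinas. For beta-actin it was 0.93, 1.10 and 1.08 at 2 h and 0.69, 0.62 and 0.52 at 24 h. For Gapdh it was 0.07, -0.04 and -0.07 at 2 h and -0.13, -0.39 and -0.24 at 24 h. The groups did not overlap in either, and an exact two-sided permutation test gave p = 0.1, the smallest that 3 against 3 arrays allow. In INS37217 retinas the beta-actin means were 0.747 at 2 h and 0.623 at 24 h, against 1.04 and 0.61 in saline. Those of Gapdh were -0.163 and -0.337, against -0.0133 and -0.253 in saline. The part of these shifts in the differences below, and in their comparison with INS37217 retinas, was not tested. Rods define the labelled tissue, and rod arrestin (Sag) measured 13.75, 14.00 and 14.03 at 2 h and 13.75, 13.86 and 13.94 at 24 h, near the top of the range. Lens crystallins were also high, with Cryaa at 13.48, 13.46 and 13.57 at 2 h and 14.07, 13.72 and 13.87 at 24 h.

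**Figure D1:**
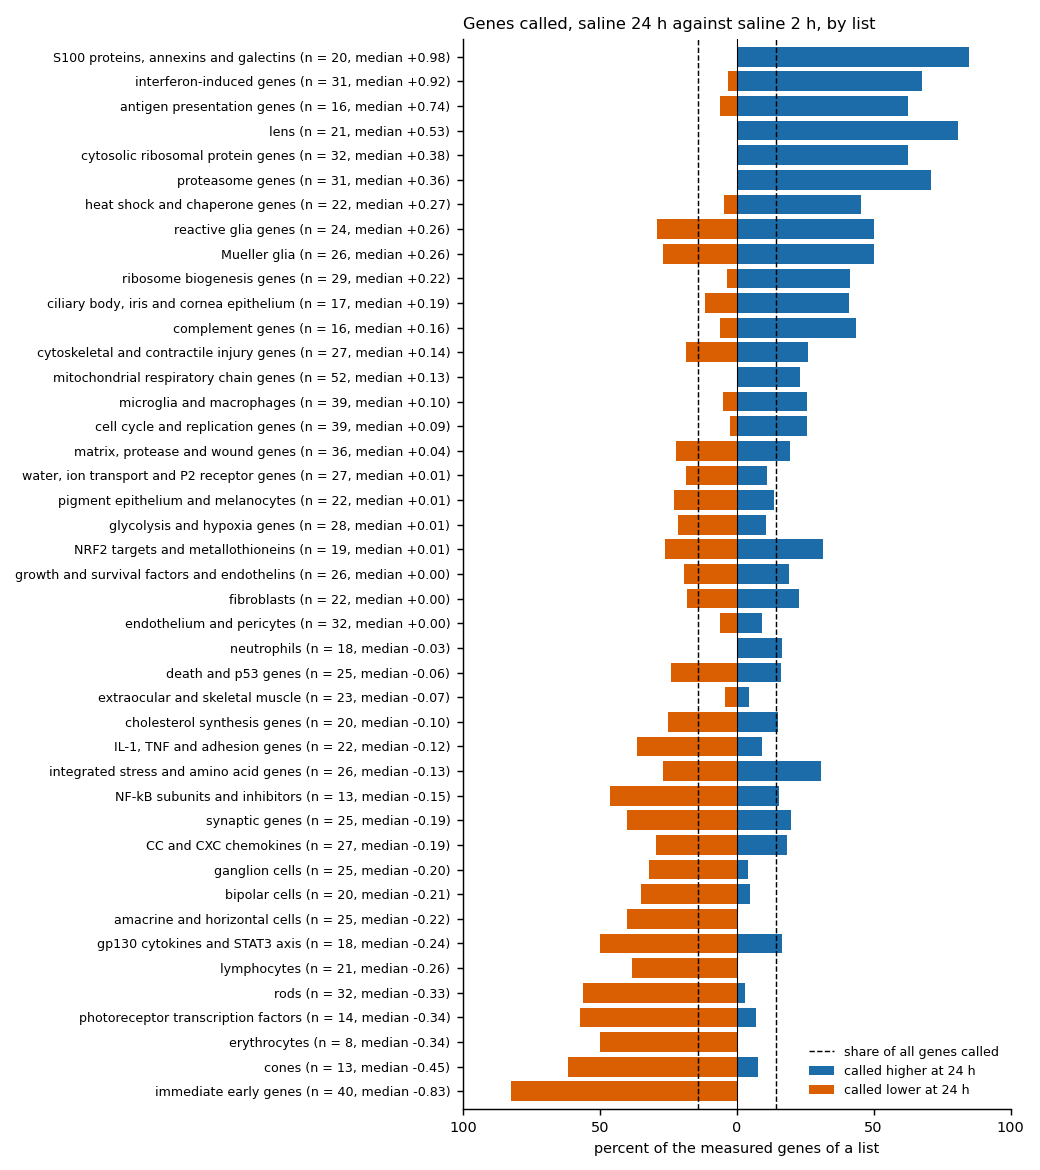
Percent of the measured genes of each of 43 lists called higher (blue, right) or lower (orange, left) at 24 h against 2 h after saline detachment, sorted by the list's median log2 difference. The dashed lines mark the shares of all genes called, 14.2% higher and 14.0% lower; S100, annexin and galectin genes lie at the top (17 of 20 higher) and immediate early genes at the bottom (33 of 40 lower).

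The immediate early genes, which code mostly for transcription factors and feedback regulators made within minutes of a stimulus, were the list furthest below the background. Of 40 measured, 33 were called lower at 24 h and 0 higher, against 14.0% and 14.2% of all genes, with a median difference of -0.83. The remaining 7 were not called, and 22 were lower without the block. At least 2-fold falls were called for 19 of the 40.

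The largest fall among all genes was that of Maff, a small member of the bZIP family that pairs with CNC and AP-1 factors. It measured 9.56, 9.99 and 10.12 at 2 h and 5.85, 5.49 and 5.46 at 24 h. The level at 2 h was 19.6-fold that at 24 h (log2 difference -4.29, SE 0.16, adjusted p = 4.8e-14), and the groups lay far apart.

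The AP-1 partners Fos and Fosb fell together. Fos measured 11.94, 12.35 and 12.24 at 2 h and 9.38, 9.61 and 9.54 at 24 h (log2 difference -2.67, SE 0.11, adjusted p = 4.4e-13). Fosb measured 9.27, 8.10 and 7.92 at 2 h and 6.12, 5.26 and 4.96 at 24 h (log2 difference -2.98, SE 0.19, adjusted p = 2.3e-10). Neither pair of groups overlapped, and replicate 1 was the highest Fosb array at both times. Jun, their dimer partner, fell less, from 9.86, 10.24 and 10.36 to 8.81, 8.78 and 9.03 (log2 difference -1.28, SE 0.11, adjusted p = 3.6e-08). Among other stress-induced factors, Atf3 fell by 1.47 ± 0.09 (SE), from 10.33, 10.53 and 10.52 to 8.93, 8.99 and 9.05.

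The zinc finger factor Egr1 measured 12.26, 11.85 and 12.01 at 2 h and 9.18, 9.20 and 9.32 at 24 h, without overlap (log2 difference -2.81, SE 0.12, adjusted p = 6.7e-13). The orphan nuclear receptor Nr4a1 measured 11.61, 11.22 and 11.41 at 2 h and 9.43, 8.81 and 8.92 at 24 h, again without overlap (log2 difference -2.36, SE 0.10, adjusted p = 6.7e-13). Arc, a synaptic protein that neurons make on activity, measured 8.40, 7.64 and 7.47 at 2 h and 5.93, 5.56 and 5.45 at 24 h (log2 difference -2.19, SE 0.13, adjusted p = 8.9e-11). Replicate 1 was the highest array for Arc at both times. Ccn1, a secreted matricellular protein, measured 9.98, 9.71 and 9.93 at 2 h and 6.91, 6.78 and 7.0 at 24 h (log2 difference -2.98, SE 0.11, adjusted p = 9.1e-14); the groups lay apart. Zfp36, which destabilises cytokine messengers, fell by 2.51 ± 0.13 from 9.84, 9.54 and 9.80 to 7.56, 7.05 and 7.03 (adjusted p = 5e-12). Srf, the factor that binds CArG boxes, fell by 1.32 ± 0.10 from 8.61, 8.22 and 8.29 to 7.21, 7.04 and 6.90.

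Mean log2 signals at 7 d were 5.46 ± 0.308 for Maff, 9.03 ± 0.363 for Fos and 8.86 ± 0.0777 for Egr1 (SD, n = 3), and 7.59 ± 0.195 for Atf3. The list's mean level was 8.56 to 8.62 on the 2 h arrays, 7.34 to 7.42 on the 24 h arrays and 7.11 to 7.18 on the 7 d arrays.

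Promoters of 28 of the 33 fallen genes were in the RefSeq promoter table (34 windows of 300 bases, GRCm38.p6). A CArG box was matched in 6 of these windows (17.6%), which belong to 3 of the 28 genes (Egr2, Srf and Zfp36), against 1.63% of all 32851 windows, and the cyclic AMP response element TGACGTCA in 3 (8.82%), against 1.79%. The AP-1 site TGANTCA was matched in 0 windows, against 7.81% of all. The antioxidant response element core TGACNNNGC, searched as well, was matched in 12 (35.3%), against 12.4% of all. Motifs were searched on both strands, and a match is a description of letters only. To show such matches, the 120 bases before the start are printed for Zfp36 (chr7:28379229-28379348, minus strand), Srf (chr17:46556163-46556282, minus strand) and Maff (chr15:79347400-79347519, plus strand), 5′ to 3′ on the gene's strand, with CArG boxes (Zfp36, Srf) or the cyclic AMP response element (Maff) in capitals.
Zfp36: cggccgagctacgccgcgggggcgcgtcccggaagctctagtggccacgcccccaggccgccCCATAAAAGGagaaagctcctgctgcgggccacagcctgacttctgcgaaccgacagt
Srf: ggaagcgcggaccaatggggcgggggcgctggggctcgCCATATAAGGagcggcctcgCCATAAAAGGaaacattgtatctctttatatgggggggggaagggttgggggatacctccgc
Maff: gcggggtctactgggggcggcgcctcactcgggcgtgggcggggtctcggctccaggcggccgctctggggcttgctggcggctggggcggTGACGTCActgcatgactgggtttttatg

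**Figure D2:**
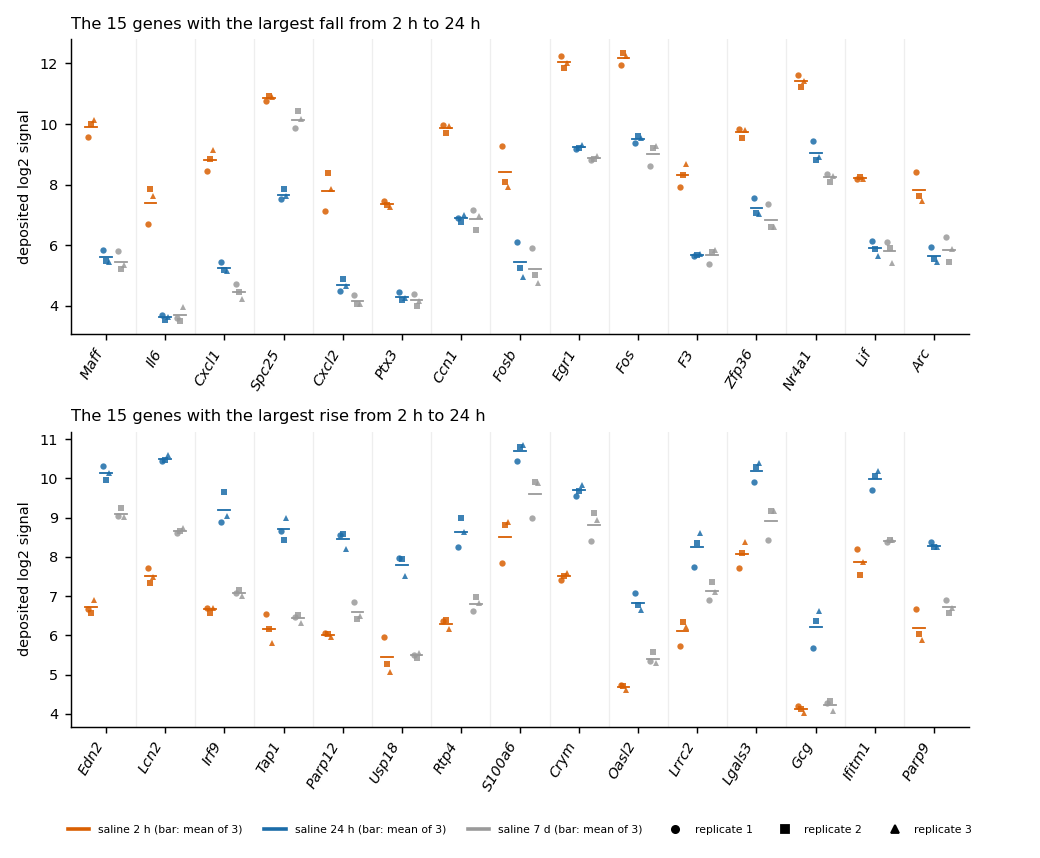
Deposited log2 signal of the 15 genes with the largest fall (top) and the 15 with the largest rise (bottom) from 2 h to 24 h, for each saline array at 2 h, 24 h and 7 d; point shapes are replicate numbers and bars are means of 3 arrays. The 2 h and 24 h points do not overlap in any of the 30 genes, which was part of how they were chosen.

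Chemokines moved in both directions, with the largest falls in the neutrophil attractants Cxcl1 and Cxcl2. The list had 8 of 27 genes called lower and 5 called higher, against 14.0% and 14.2% of all genes, with a median of -0.19. Without the block the counts were 5 and 3.

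Cxcl1, a neutrophil attractant, measured 8.44, 8.85 and 9.13 at 2 h and 5.44, 5.17 and 5.15 at 24 h. That is a 11.7-fold fall (log2 difference -3.55, SE 0.17, adjusted p = 2.6e-12), with a further drop to 4.47 ± 0.245 (SD, n = 3) at 7 d. Its neighbour on the chromosome and in function, Cxcl2, measured 7.13, 8.37 and 7.86 at 2 h and 4.48, 4.90 and 4.66 at 24 h (log2 difference -3.11, SE 0.26, adjusted p = 1.8e-08). Neither pair of groups overlapped, and replicate 1 was the lowest array at 2 h for both. The monocyte attractant Ccl2 fell from 8.43, 8.99 and 9.23 to 7.18, 7.31 and 7.49 (log2 difference -1.56, SE 0.12, adjusted p = 2.6e-09), and stood at 6.09 ± 0.13 at 7 d.

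Among those that rose, Ccl6 measured 5.32, 5.46 and 5.16 at 2 h and 6.32, 7.72 and 7.05 at 24 h (log2 difference 1.72, SE 0.19, adjusted p = 7.9e-07). Ccl12, a ligand of the monocyte receptor CCR2, measured 4.76, 4.87 and 4.94 at 2 h and 5.75, 6.50 and 6.42 at 24 h (log2 difference 1.37, SE 0.15, adjusted p = 4.9e-07). Both were without overlap but spread more at 24 h than at 2 h. Cxcl12, which holds CXCR4-bearing cells in place, rose by 0.90 ± 0.15 (SE), a call that was lost without the block (adjusted p = 0.055).

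Of 22 genes for interleukin 1, tumour necrosis factor and leukocyte adhesion, 8 were called lower and 2 higher (5 and 2 without the block). Of all genes 14.0% were lower and 14.2% higher. The alarmin Il33 and the adhesion receptor Vcam1 were those that rose, Il33 with an adjusted p of 0.097 on the 6 arrays alone without the block. The inflammatory cytokine Il1b fell from 7.65, 7.41 and 7.96 to 6.56, 6.26 and 6.36 (log2 difference -1.28, SE 0.16, adjusted p = 5.2e-06). Tnfaip6, an anti-inflammatory hyaluronan-binding protein, fell from 5.70, 5.24 and 5.25 to 4.10, 4.21 and 3.95 (log2 difference -1.31, SE 0.12, adjusted p = 6.4e-08). Receptors for leukocyte adhesion moved apart: Icam1 fell by 1.10 ± 0.09 and Vcam1 rose by 0.89 ± 0.13, both without overlap.

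Of 13 NF-kB subunits and inhibitors, 6 were called lower and 2 higher (2 and 2 without the block), against 14.0% and 14.2% of all genes. Of the inhibitors on the list, Nfkbia, Nfkbiz and Nfkbie were called lower. The Nfkbie call was lost without the block (adjusted p = 0.26) and in 4 of the 6 fits that left out 1 of the arrays compared. Nfkbib (0.0, adjusted p = 0.98), Tnfaip3 (-0.11, adjusted p = 0.46) and Tnip1 (-0.15, adjusted p = 0.28) were not called. Nfkbia, the cytoplasmic inhibitor, fell from 11.70, 11.38 and 11.39 to 10.56, 10.13 and 10.38 (log2 difference -1.13, SE 0.09, adjusted p = 1.2e-08), and Nfkbiz, a nuclear member of the family, fell by 1.58 ± 0.10. Bcl3, a nuclear partner of NF-kB p50 and p52, rose from 6.07, 6.0 and 6.18 to 6.86, 7.0 and 7.45 (log2 difference 1.02, SE 0.12, adjusted p = 1.6e-06), and the NF-kB inhibitor Tnip2 by 0.89 ± 0.12.

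A kappa-B site was matched in 3 of 7 promoter windows of the 6 fallen chemokine genes found in the table (42.9%), in 7 of 34 of the fallen immediate early genes (20.6%) and in 4.51% of all windows. For chemokine genes called higher it was matched in 1 of 5 windows (20.0%), and for all measured chemokine genes in 6 of 21 (28.6%). The interferon-stimulated element core GAAANNGAA was matched in as many windows of the fallen chemokine genes, 3 of 7 (42.9%), against 8.56% of all. The 120 bases before the start are printed for the 3 fallen ligands with the largest change, Cxcl1 (chr5:90891125-90891244), Cxcl2 (chr5:90903779-90903898) and Il6 (chr5:30012994-30013113), all on the plus strand of GRCm38.p6, with the kappa-B site in capitals. In Cxcl1 and Cxcl2 overlapping matches on both strands give 1 run of capitals.
Cxcl1: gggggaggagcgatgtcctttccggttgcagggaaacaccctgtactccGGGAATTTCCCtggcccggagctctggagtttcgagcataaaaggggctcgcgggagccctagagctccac
Cxcl2: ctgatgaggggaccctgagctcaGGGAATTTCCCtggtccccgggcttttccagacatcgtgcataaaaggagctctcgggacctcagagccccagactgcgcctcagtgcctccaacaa
Il6: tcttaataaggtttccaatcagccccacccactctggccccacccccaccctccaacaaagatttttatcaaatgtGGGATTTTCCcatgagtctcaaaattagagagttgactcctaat

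The gp130 ligands Il6, Lif and Clcf1 were called lower, Il11 was not called (-0.18, adjusted p = 0.23), and the receptor chain they share was called higher. Of 18 genes on this axis, 9 were called lower and 3 higher (6 and 2 without the block), against 14.0% and 14.2% of all genes. The list's median was -0.24. Il6 measured 6.71, 7.85 and 7.64 at 2 h and 3.71, 3.53 and 3.63 at 24 h. It fell 13.7-fold (log2 difference -3.78, SE 0.24, adjusted p = 2.2e-10) to near the lower end of the range of the arrays, and stood at 3.68 ± 0.244 (SD, n = 3) at 7 d. Lif measured 8.19, 8.25 and 8.19 at 2 h and 6.15, 5.88 and 5.65 at 24 h, without overlap (log2 difference -2.32, SE 0.11, adjusted p = 4.4e-12), by 1 of its 2 probe sets, and the other differed by -0.12.

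Il6st, the gp130 chain shared by these ligands, measured 7.81, 8.38 and 8.41 at 2 h and 9.24, 9.42 and 9.64 at 24 h. It rose by 1.23 ± 0.11 (adjusted p = 6.6e-08), and no 24 h array overlapped the 2 h arrays. None of the other receptor chains on the list was called higher, and those called lower lost the call without the block. Stat3, which gp130 activates, rose less, from 9.80, 9.85 and 9.99 to 10.42, 10.28 and 10.31 (log2 difference 0.46, SE 0.10, adjusted p = 0.002; 0.073 on the 6 arrays alone without the block). Of the target genes, Socs3, the feedback inhibitor of gp130, fell from 9.34, 9.84 and 9.72 to 8.52, 8.99 and 8.81 (log2 difference -0.86, SE 0.10, adjusted p = 1.2e-06). Cebpd, a transcription factor that STAT3 induces, rose by 0.76 ± 0.12 by 1 of its 2 probe sets, and the other differed by -0.06. The Cebpd call was lost without the block (adjusted p = 0.1). Its relative Cebpb fell by 1.84 ± 0.12, and the kinase Pim1 by 1.11 ± 0.11.

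Endothelin 2 was the largest riser of all genes. Photoreceptors are known to make it on injury, and its receptor Ednrb sits on glia. Edn2 measured 6.68, 6.57 and 6.90 at 2 h and 10.31, 9.96 and 10.13 at 24 h. The rise was 10.7-fold (log2 difference 3.42, SE 0.12, adjusted p = 1.9e-14), and at 7 d the mean was still 9.09 ± 0.127 (SD, n = 3). Ednrb measured 5.94, 5.66 and 5.72 at 2 h and 6.74, 7.66 and 7.18 at 24 h, also without overlap (log2 difference 1.42, SE 0.17, adjusted p = 2.8e-06).

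Of 26 growth and survival factor and endothelin genes, 5 were called higher and 5 lower, near the 14.2% and 14.0% of all genes. Without the block 4 and 2 were called, and the list's median was 0.00. Fgf2, a survival factor for photoreceptors, measured 4.60, 4.42 and 4.75 at 2 h and 5.49, 6.91 and 6.69 at 24 h (log2 difference 1.77, SE 0.23, adjusted p = 7.2e-06). The replicate 1 array at 24 h was more than 1 log2 unit under the other 2 but above every 2 h array. Met, the receptor of hepatocyte growth factor, rose by 0.92 ± 0.14. Hbegf, an EGF receptor ligand, fell by 1.42 ± 0.13, and Inhba, the activin A subunit, by 1.66 ± 0.11, all 3 without overlap.

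Reactive glia genes moved both ways. Of 24 measured, 12 were called higher and 7 lower, against 14.2% and 14.0% of all genes, with a median of 0.26 (10 and 4 without the block). Lcn2, an iron-carrier-binding lipocalin secreted by reactive astrocytes and also held by neutrophils, measured 7.71, 7.34 and 7.49 at 2 h and 10.45, 10.47 and 10.59 at 24 h. It rose 7.94-fold (log2 difference 2.99, SE 0.11, adjusted p = 3.5e-14) with little spread at either time. Serpina3n, a secreted protease inhibitor, measured 9.13, 8.76 and 8.56 at 2 h and 11.02, 10.72 and 10.60 at 24 h (log2 difference 1.96, SE 0.11, adjusted p = 2.6e-11). At 7 d its mean was 8.98 ± 0.248 (SD, n = 3), within the range of the 2 h arrays.

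The glial filament gene Gfap measured 7.95, 7.12 and 7.34 at 2 h and 9.06, 8.40 and 8.46 at 24 h (log2 difference 1.17, SE 0.11, adjusted p = 4.2e-08). Replicate 1 was the highest array at both times, and without the block the adjusted p was 0.035. Vim, the other filament of Mueller glia, rose from 10.81, 10.71 and 11.01 to 12.30, 12.15 and 12.26 (log2 difference 1.39, SE 0.10, adjusted p = 8.6e-10). Timp1, an inhibitor of matrix proteases, rose from 7.11, 7.08 and 7.13 to 8.70, 8.97 and 8.93 (log2 difference 1.76, SE 0.12, adjusted p = 8e-10). Among the fallers, Ptx3, a soluble pattern recognition protein, measured 7.45, 7.33 and 7.27 at 2 h and 4.44, 4.20 and 4.25 at 24 h (log2 difference -3.05, SE 0.13, adjusted p = 3.1e-13). Emp1, a membrane protein of injured epithelia and glia, fell by 1.54 ± 0.17.

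**Figure D3:**
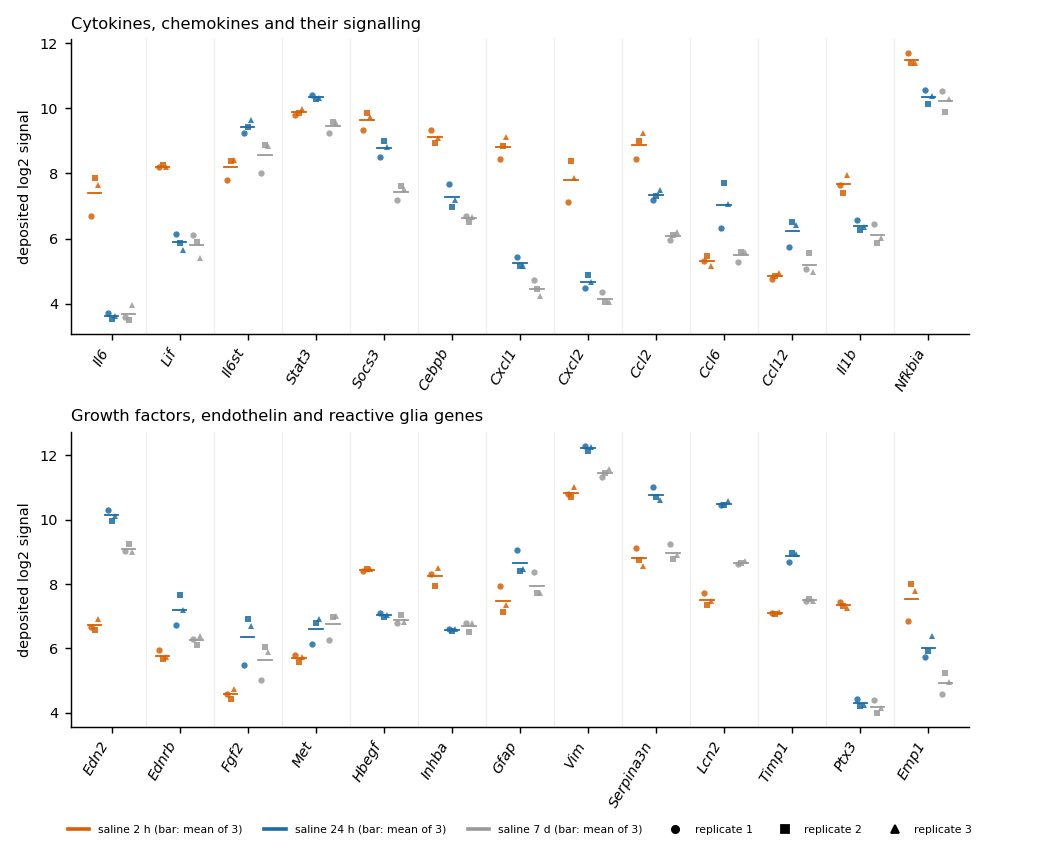
Deposited log2 signal by array at 2 h, 24 h and 7 d after saline detachment for cytokine and chemokine genes (top) and for growth factor, endothelin and reactive glia genes (bottom); point shapes are replicate numbers and bars are means of 3 arrays. Il6 and Lif fell while Il6st rose, and Edn2, Lcn2 and Serpina3n rose while Ptx3 and Emp1 fell.

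Most interferon-induced genes rose at 24 h. Of 31 measured, 21 were called higher and 1 lower, against 14.2% and 14.0% of all genes, with a median of 0.92, and 17 were higher without the block. The gene that fell was the guanylate-binding protein Gbp2, by 0.40 ± 0.12, a call lost without the block (adjusted p = 0.19) and in 4 of the 6 fits that left out 1 of the arrays compared. The list's mean level was 6.12 to 6.24 on the 2 h arrays, 7.07 to 7.15 on the 24 h arrays and 6.22 to 6.26 on the 7 d arrays.

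Irf9, the DNA-binding part of the interferon-stimulated factor ISGF3, measured 6.70, 6.57 and 6.71 at 2 h and 8.90, 9.65 and 9.03 at 24 h (log2 difference 2.53, SE 0.20, adjusted p = 4.9e-09). Its partner Stat2 rose from 6.69, 6.32 and 6.63 to 8.46, 8.37 and 8.53 (log2 difference 1.91, SE 0.12, adjusted p = 2.3e-10). At 7 d their means were 7.08 ± 0.0755 and 6.46 ± 0.197 (SD, n = 3), below every 24 h array. Usp18, which removes ISG15 and dampens the receptor, measured 5.96, 5.28 and 5.08 at 2 h and 7.96, 7.94 and 7.51 at 24 h (log2 difference 2.36, SE 0.14, adjusted p = 8.7e-11). Rtp4 measured 6.36, 6.38 and 6.16 at 2 h and 8.24, 9.0 and 8.64 at 24 h (log2 difference 2.33, SE 0.15, adjusted p = 3.7e-10) by 1 of its 2 probe sets, and the other differed by 0.20. Oasl2, of the oligoadenylate synthetase family, measured 4.73, 4.72 and 4.62 at 2 h and 7.07, 6.77 and 6.64 at 24 h (log2 difference 2.14, SE 0.11, adjusted p = 1.1e-11). None of these 5 genes overlapped between the times.

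Among antiviral effectors, some rose and some were not called. Ifit1, an antiviral RNA-binding protein, rose by 1.36 ± 0.14, and the immunity-related GTPase Igtp by 2.02 ± 0.13. Rsad2 (viperin) measured 7.25, 6.98 and 7.17 at 2 h and 7.07, 7.01 and 7.02 at 24 h and was not called (log2 difference -0.10, SE 0.13, adjusted p = 0.59), nor was the GTPase Iigp1, at 6.02, 6.25 and 5.79 and 6.10, 6.04 and 6.11. Outside the list, the poly-ADP-ribosyl transferase Parp12 rose 5.44-fold (log2 difference 2.44, SE 0.11, adjusted p = 7.5e-13), its family member Parp9 by 2.09 ± 0.12, and the membrane protein Ifitm1 from 8.21, 7.54 and 7.87 to 9.70, 10.06 and 10.19 (log2 difference 2.11, SE 0.14, adjusted p = 6.5e-10).

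Promoters of 18 of the 21 risen genes were in the table, in 22 windows, of which 10 (45.5%) held the interferon-stimulated element core GAAANNGAA, against 8.56% of all windows. Over all measured genes of the list, whether called or not, the core was matched in 12 of 28 windows (42.9%). The STAT site TTCNNNGAA was matched in 7 of the 22 windows of the risen genes (31.8%), against 8.30% of all. The 120 bases before the start are printed for 3 genes with a match in them, Ifit1 (chr19:34640769-34640888), Ifit3 (chr19:34583409-34583528) and Igtp (chr11:58199436-58199555), all on the plus strand of GRCm38.p6. Capitals mark the core, on either strand, and Ifit1 has 3 matches, of which 2 overlap.
Ifit1: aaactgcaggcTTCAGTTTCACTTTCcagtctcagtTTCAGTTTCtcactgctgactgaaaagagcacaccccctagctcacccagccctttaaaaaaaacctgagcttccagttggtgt
Ifit3: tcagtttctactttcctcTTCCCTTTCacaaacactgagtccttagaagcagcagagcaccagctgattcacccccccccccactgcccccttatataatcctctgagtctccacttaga
Igtp: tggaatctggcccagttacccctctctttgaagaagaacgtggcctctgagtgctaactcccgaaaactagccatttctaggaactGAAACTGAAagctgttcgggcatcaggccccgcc

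Genes of class I antigen presentation rose as well. Of 16 antigen presentation genes of class I and class II, 10 were called higher and 1 lower (10 and 0 without the block). The list's median was 0.74, and the 10 called higher were all of the class I pathway. The 1 that fell was H2-DMa, a class II peptide loader, by 0.37 ± 0.11, a call lost without the block (adjusted p = 0.077) and in 3 of the 6 fits that left out 1 of the arrays compared. Tap1, the peptide transporter, measured 6.54, 6.17 and 5.80 at 2 h and 8.67, 8.44 and 8.99 at 24 h (log2 difference 2.53, SE 0.15, adjusted p = 6e-11), by the probe set of highest mean of its 4. Psmb9, an immunoproteasome subunit, measured 6.23, 6.08 and 6.46 at 2 h and 7.81, 8.23 and 8.44 at 24 h (log2 difference 1.90, SE 0.11, adjusted p = 4e-11). The class I heavy chain H2-D1 rose from 8.91, 8.57 and 8.68 to 10.48, 10.09 and 10.34 (log2 difference 1.58, SE 0.11, adjusted p = 1.6e-09), and 6 of its 9 probe sets were called higher. Class I heavy chains are near-identical copies of one another, so signal cannot be assigned to H2-D1 alone. The class II genes Cd74, H2-Aa and H2-Ab1 and their activator Ciita differed by 0.03, -0.03, -0.05 and -0.01, and none was called.

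Of 16 complement genes, 7 were called higher and 1 lower (6 and 0 without the block), against 14.2% and 14.0% of all genes. The list's median was 0.16. Complement factor 5 (Hc) fell by 0.40 ± 0.11, also a call lost without the block (adjusted p = 0.48) and in 3 of those 6 fits. Serping1, the C1 inhibitor, rose from 6.66, 6.87 and 7.02 to 7.97, 8.46 and 8.47 (log2 difference 1.45, SE 0.14, adjusted p = 1.2e-07), the protease gene C1ra by 0.92 ± 0.11, and C1qa, made by microglia, by 0.60 ± 0.13. C1qa had a mean of 8.90 ± 0.168 (SD, n = 3) at 7 d, above every 24 h array.

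The list furthest above the background was that of S100 proteins, annexins and galectins, small calcium-, membrane- and sugar-binding proteins of activated glia and leukocytes. Of 20 measured, 17 were called higher and 0 lower, with a median of 0.98, and 13 were higher without the block. S100a6 measured 7.85, 8.80 and 8.89 at 2 h and 10.45, 10.81 and 10.85 at 24 h (log2 difference 2.19, SE 0.12, adjusted p = 1.3e-11). Lgals3, galectin 3, measured 7.72, 8.09 and 8.39 at 2 h and 9.90, 10.28 and 10.38 at 24 h (log2 difference 2.12, SE 0.12, adjusted p = 2.3e-11). Lgals1 measured 8.48, 9.51 and 9.63 at 2 h and 10.30, 11.18 and 11.31 at 24 h (log2 difference 1.72, SE 0.10, adjusted p = 8.6e-11). For all 3 the replicate 1 array was the lowest at both times, and the groups did not overlap.

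S100a4 rose from 7.59, 7.69 and 7.93 to 9.24, 9.71 and 9.72 (log2 difference 1.82, SE 0.15, adjusted p = 9.2e-09). Anxa2, an annexin of plasma membranes, rose from 8.68, 8.83 and 9.05 to 9.83, 10.32 and 10.42 by 1 of its 3 probe sets (log2 difference 1.34, SE 0.10, adjusted p = 4.5e-09). S100a9, an abundant neutrophil protein, measured 5.92, 6.12 and 6.0 at 2 h and 6.80, 7.44 and 7.78 at 24 h (log2 difference 1.33, SE 0.22, adjusted p = 8.4e-05), and its partner S100a8 measured 5.17, 5.21 and 5.23 at 2 h and 5.74, 6.56 and 6.68 at 24 h (log2 difference 1.12, SE 0.22, adjusted p = 0.00065). Both were under their 2 h level at 7 d, at 5.08 ± 0.19 and 4.52 ± 0.185 (SD, n = 3).

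Markers of leukocytes were read beside these results. Of 18 neutrophil genes 3 were called, all higher: Lcn2, S100a8 and S100a9. The other 15 were not called, among them the granule enzyme genes Mpo and Elane, which differed by -0.06 and -0.20. The list's mean level was 5.69 to 6.06 at 2 h and 5.96 to 6.18 at 24 h. Of 39 microglia and macrophage genes, 10 were called higher and 2 lower (5 and 1 without the block), against 14.2% and 14.0% of all genes. That list's median was 0.10. Cd68, a lysosomal protein of phagocytes, rose from 5.72, 5.31 and 5.43 to 6.96, 6.97 and 7.05 (log2 difference 1.51, SE 0.20, adjusted p = 6e-06). Lyz2, lysozyme, rose by 0.94 ± 0.13, and stood at 9.78 ± 0.0755 (SD, n = 3) at 7 d, above every 24 h array.

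The microglia genes Cx3cr1, Aif1 and Csf1r were among the 27 of this list not called, with differences of 0.16, 0.08 and -0.23. They were picked after their values were seen and do not stand for all identity genes of microglia. Arg1, an enzyme of wound macrophages, rose from 4.14, 4.0 and 4.09 to 5.07, 5.54 and 5.98 (log2 difference 1.45, SE 0.30, adjusted p = 0.00084), a call lost without the block (adjusted p = 0.077). Cd14, the lipopolysaccharide co-receptor, fell by 0.71 ± 0.11. The mean level of the microglia and macrophage list was 5.79 to 6.02 at 2 h, 6.0 to 6.11 at 24 h and 6.39 to 6.42 at 7 d. The part of leukocytes in the interferon, class I and S100 results was not tested.

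Of 36 matrix, protease and wound genes, 7 were called higher and 8 lower (5 and 4 without the block), near the 14.2% and 14.0% of all genes, with a median of 0.04. Single members changed far more, as did F3, a gene outside this list. F3, tissue factor, which starts coagulation, measured 7.92, 8.33 and 8.68 at 2 h and 5.65, 5.68 and 5.70 at 24 h (log2 difference -2.63, SE 0.15, adjusted p = 4e-11) and did not overlap. The tissue plasminogen activator Plat measured 9.20, 9.32 and 9.44 at 2 h and 7.40, 7.19 and 7.36 at 24 h (log2 difference -2.0, SE 0.11, adjusted p = 1.5e-11). Adamts1, a secreted metalloproteinase, measured 9.91, 10.42 and 10.67 at 2 h and 8.02, 8.29 and 8.65 at 24 h (log2 difference -2.01, SE 0.10, adjusted p = 4.2e-12). Timp3, the main protease inhibitor of Bruch's membrane, fell from 10.90, 10.76 and 10.79 to 9.21, 9.19 and 9.27 (log2 difference -1.59, SE 0.10, adjusted p = 9.2e-11), and 3 of its 4 probe sets were called lower.

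On the rising side, the fibrillar collagen gene Col3a1 rose from 5.37, 5.09 and 5.29 to 6.45, 6.76 and 6.63 by 1 of its 2 probe sets (log2 difference 1.36, SE 0.16, adjusted p = 2.4e-06). Mmp3, stromelysin, rose from 4.64, 4.37 and 4.36 to 5.23, 6.05 and 5.78 (log2 difference 1.23, SE 0.19, adjusted p = 4.2e-05). Of 22 fibroblast genes, 5 were called higher and 4 lower, against 14.2% and 14.0% of all genes, and 1 and 0 without the block, and their mean level was 6.03 to 6.27 at 2 h and 6.18 to 6.30 at 24 h. Of 32 endothelial and pericyte genes 3 were called higher and 2 lower.

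Among genes of growth and protein turnover, most of those for ribosomal proteins and the proteasome rose by small steps. Of 32 cytosolic ribosomal protein genes 20 were called higher and 0 lower (median 0.38), and of 31 proteasome genes 22 were called higher and 0 lower (median 0.36). Without the block 8 and 0 were called higher, respectively, so that no proteasome call was kept. Rplp0, of the ribosomal stalk, rose from 9.39, 10.09 and 10.25 to 10.78, 11.03 and 10.96 (log2 difference 1.01, SE 0.12, adjusted p = 1.5e-06). Psma4, of the 20S core, measured 8.96, 9.43 and 9.26 at 2 h and 9.42, 9.87 and 9.94 at 24 h, so the groups overlapped and replicate 1 was the lowest array at both times (log2 difference 0.53, SE 0.09, adjusted p = 8.6e-05; 0.12 without the block).

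Of 52 respiratory chain genes 12 were called higher and 0 lower (median 0.13), and 1 was higher without the block. Among heat shock and chaperone genes the counts were 10 of 22 higher and 1 lower (median 0.27), and 2 and 1 without the block. The 2 higher calls kept without the block were those of alpha crystallins, which are also on the lens list. The 1 that fell was Bag3, a co-chaperone of selective autophagy, from 8.41, 8.20 and 8.74 to 7.51, 7.05 and 7.14 (log2 difference -1.22, SE 0.13, adjusted p = 7e-07). Of 19 NRF2 targets and metallothioneins, 6 were higher and 5 lower (2 and 3 without the block). Srxn1, sulfiredoxin, which repairs peroxiredoxins, fell from 9.86, 9.94 and 10.09 to 7.99, 7.95 and 8.20 (log2 difference -1.92, SE 0.10, adjusted p = 2.3e-11), and the metal-binding Mt2 fell by 1.16 ± 0.10. The antioxidant response element core TGACNNNGC was matched in 3 of 7 promoter windows of the fallen genes on this list (42.9%) and in 1 of 5 of the risen ones (20.0%), against 12.4% of all windows.

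Genes of the cell cycle and of DNA replication were called higher in 10 of 39 cases and lower in 1 (5 and 1 without the block). Of all genes 14.2% were higher and 14.0% lower, and the list's median was 0.09. Rrm1, a ribonucleotide reductase subunit, rose from 6.90, 7.03 and 7.04 to 7.67, 8.25 and 7.95 by 1 of 2 probe sets (log2 difference 0.97, SE 0.12, adjusted p = 4.2e-06), and Top2a, a topoisomerase of dividing cells, from 5.06, 5.20 and 5.05 to 5.81, 5.68 and 6.13 (log2 difference 0.77, SE 0.13, adjusted p = 0.00011). Mki67 and Cdk1, markers of cycling cells, differed by 0.20 and 0.16 and were not called. The 1 that fell was Spc25, a subunit of the NDC80 kinetochore complex. It measured 10.76, 10.94 and 10.88 at 2 h and 7.54, 7.84 and 7.61 at 24 h, a 9.17-fold fall (log2 difference -3.20, SE 0.10, adjusted p = 1e-14) without overlap, and returned to 10.15 ± 0.285 (SD, n = 3) at 7 d. Its complex partner Ndc80 measured 4.38, 4.36 and 4.41 at 2 h and 4.18, 4.45 and 4.26 at 24 h and was not called. Both Spc25 probe sets were called lower, the other by -0.64, and the gene is also on the Mueller glia list.

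Rod genes were called lower in 18 of 32 cases and higher in 1, against 14.0% and 14.2% of all genes, with a median of -0.33 (11 and 0 without the block). The gene that rose was Impg1, of the matrix between the photoreceptors, by 0.59 ± 0.10, a call lost without the block (adjusted p = 0.45). The list's mean level was 11.09 to 11.29 on the 2 h arrays, 10.85 to 10.88 on the 24 h arrays and 10.98 to 11.09 on the 7 d arrays. Prph2, peripherin 2, which shapes the rims of outer segment discs, stood apart. It measured 10.08, 10.19 and 9.98 at 2 h and 8.11, 7.73 and 8.13 at 24 h, a 4.27-fold fall (log2 difference -2.09, SE 0.14, adjusted p = 3.1e-10), and was 7.77 ± 0.289 (SD, n = 3) at 7 d.

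Other rod genes that were called lower fell by less than 1 log2 unit. The retinal reductase Rdh12 fell from 11.38, 11.39 and 11.46 to 10.51, 10.62 and 10.39 (log2 difference -0.90, SE 0.10, adjusted p = 5.7e-07). Reep6, needed for rod membrane traffic, fell from 12.04, 11.74 and 11.83 to 11.35, 10.76 and 10.88 (log2 difference -0.87, SE 0.09, adjusted p = 4.7e-07). Cngb1, a subunit of the cGMP-gated channel, fell by 0.70 ± 0.09. The rod list genes Sag, Gnat1 and Rbp3, picked after their values were seen, were not called, and their groups overlapped. Sag, near the top of the arrays' range, differed by -0.08 and the retinoid carrier Rbp3 by -0.02. The transducin subunit Gnat1 differed by -0.26 (-0.38 and called without saline 2 h replicate 1).

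Cone genes had a median of -0.45, with 8 of 13 called lower and 1 higher (5 and 1 without the block). Of all genes 14.0% were lower and 14.2% higher. The blue cone opsin Opn1sw measured 11.08, 11.15 and 11.37 at 2 h and 9.57, 9.65 and 9.71 at 24 h (log2 difference -1.56, SE 0.11, adjusted p = 1e-09), and the green cone opsin Opn1mw fell less, from 9.27, 9.42 and 9.51 to 8.65, 8.86 and 8.84 (log2 difference -0.62, SE 0.09, adjusted p = 3.7e-05). Kcne2, a potassium channel subunit, measured 8.59, 9.02 and 9.04 at 2 h and 7.07, 7.68 and 7.56 at 24 h (log2 difference -1.45, SE 0.09, adjusted p = 8.3e-11). Gnat2, cone transducin, fell from 10.02, 10.35 and 10.47 to 9.12, 9.54 and 9.57 (log2 difference -0.87, SE 0.08, adjusted p = 9.8e-08). At 7 d Opn1sw, Opn1mw, Kcne2 and Gnat2 stood at 10.83 ± 0.197, 9.52 ± 0.279, 8.63 ± 0.351 and 10.19 ± 0.219 (SD, n = 3), each mean above every 24 h array of its gene. The exception to the falls was Gnb3, a transducin beta subunit shared with bipolar cells, which rose by 0.88 ± 0.10.

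Of 14 factors that set photoreceptor identity, 8 were called lower, 1 higher and 5 not at all (4 lower and 0 higher without the block), against 14.0% and 14.2% of all genes. Neurod1 was the one called higher, by 0.40 ± 0.11, which was lost without the block (adjusted p = 0.44), without replicate 1 of 2 h and without replicate 1 of 24 h. Nrl, which specifies rods, fell from 12.62, 12.77 and 12.76 to 12.12, 12.08 and 12.01 (log2 difference -0.65, SE 0.10, adjusted p = 5.1e-05). Crx, active in rods and cones, fell from 10.71, 11.06 and 11.04 to 10.63, 10.41 and 10.34 (log2 difference -0.48, SE 0.11, adjusted p = 0.0027; 0.12 on the 6 arrays alone without the block). Mef2c, a coactivator of photoreceptor genes, fell most, from 9.17, 9.49 and 9.22 to 7.88, 8.49 and 8.29 (log2 difference -1.07, SE 0.14, adjusted p = 5.2e-06).

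Mueller glia genes moved in both directions. Of 26 measured, 13 were called higher and 7 lower (6 and 6 without the block), against 14.2% and 14.0% of all genes. The list's median was 0.26. Glul, glutamine synthetase, which clears glutamate, measured 11.49, 11.86 and 11.57 at 2 h and 10.44, 10.34 and 10.34 at 24 h (log2 difference -1.27, SE 0.13, adjusted p = 4.1e-07). Rlbp1, the retinaldehyde-binding protein, measured 9.19, 9.82 and 9.84 at 2 h and 8.46, 8.71 and 8.74 at 24 h (log2 difference -0.98, SE 0.10, adjusted p = 2.3e-07). Car14, a membrane carbonic anhydrase, measured 9.77, 9.72 and 9.81 at 2 h and 8.33, 8.50 and 8.60 at 24 h (log2 difference -1.29, SE 0.11, adjusted p = 3.1e-08). No group overlapped, and at 7 d the means of Glul, Rlbp1 and Car14 were 11.46 ± 0.265, 9.72 ± 0.324 and 9.80 ± 0.275 (SD, n = 3), above every 24 h array of each gene.

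On the rising side were Vim, above, and Crym, a thyroid hormone-binding protein, which measured 7.42, 7.51 and 7.59 at 2 h and 9.56, 9.69 and 9.83 at 24 h (log2 difference 2.19, SE 0.11, adjusted p = 4.4e-12). The transcription factors Sox2 and Sox9, both expressed by Mueller glia, moved apart: Sox2 rose by 0.98 ± 0.13 and Sox9 fell by 0.87 ± 0.13. The glutamate transporter Slc1a3 rose by 0.89 ± 0.10, a call lost without the block (adjusted p = 0.081). The water channel Aqp4 measured 7.68, 7.93 and 8.32 at 2 h and 7.40, 8.48 and 8.55 at 24 h and was not called (log2 difference 0.17, SE 0.12, adjusted p = 0.31). With replicates 2 and 3 only, its difference was 0.39 and called (adjusted p = 0.02). The other Aqp4 probe set differed by -0.27 in the main fit and was not called. Not called either was Kcnj10, the partner channel of Aqp4, at 0.15.

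**Figure D4:**
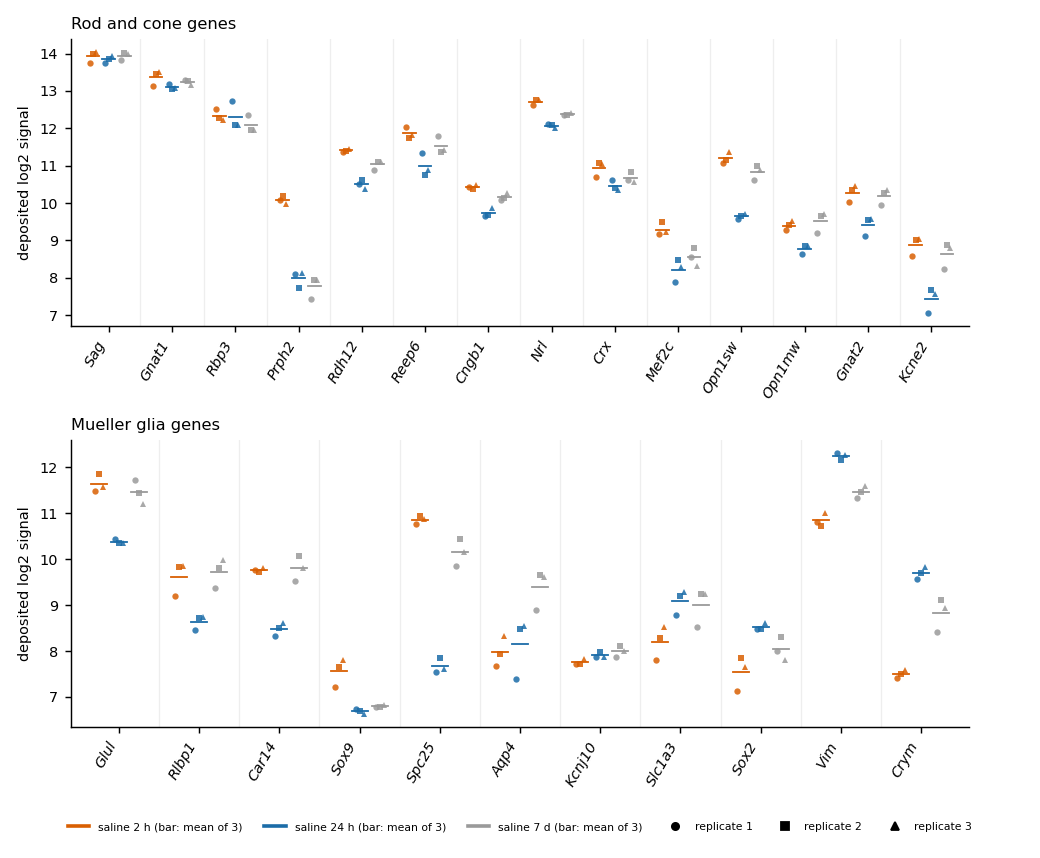
Deposited log2 signal by array at 2 h, 24 h and 7 d after saline detachment for rod and cone genes (top) and Mueller glia genes (bottom); point shapes are replicate numbers and bars are means of 3 arrays. Prph2 stayed low at 7 d, while Glul, Rlbp1, Car14 and Spc25 fell at 24 h and were higher again at 7 d.

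Of the inner retina's marker genes a minority was called lower, against 14.0% of all genes. Bipolar cell genes had 7 of 20 lower and 1 higher, amacrine and horizontal cell genes 10 of 25 lower and 0 higher, and ganglion cell genes 8 of 25 lower and 1 higher, with medians of -0.21, -0.22 and -0.20. Without the block the counts lower were 0, 2 and 2. Of 25 synaptic genes 10 were called lower and 5 higher, against 14.0% and 14.2% of all genes, and 3 and 2 without the block. Cacna1f, the calcium channel of photoreceptor and bipolar terminals, fell by 0.85 ± 0.12. Syt1, the calcium sensor of synaptic vesicles, went the other way, from 8.49, 9.39 and 9.45 to 10.45, 10.89 and 10.69 (log2 difference 1.57, SE 0.12, adjusted p = 3.4e-09). Gap43, a growth cone protein, rose by 1.04 ± 0.10, a call lost without the block (adjusted p = 0.091).

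Markers of neighbouring tissues were examined in the same arrays. Lens genes were called higher in 17 of 21 cases and lower in 0, with a median of 0.53 (14 without the block). Crygd, a gamma crystallin of lens fibres, measured 9.89, 10.12 and 10.32 at 2 h and 11.24, 11.48 and 11.53 at 24 h (log2 difference 1.31, SE 0.11, adjusted p = 2.7e-08), and the fibre filament gene Bfsp1 measured 7.61, 7.74 and 8.16 at 2 h and 8.78, 8.88 and 9.08 at 24 h (log2 difference 1.08, SE 0.12, adjusted p = 4.8e-07). The list's mean level was 9.57 to 9.74 on the 2 h arrays and 10.20 to 10.30 on the 24 h arrays, and on the 9 INS37217 arrays and the 3 saline 7 d arrays it was 10.15 to 10.51. The part of lens tissue in the other differences was not tested.

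Epithelial genes of ciliary body, iris and cornea were called higher in 7 of 17 cases and lower in 2 (3 and 0 without the block). The corneal crystallin Aldh3a1 measured 8.02, 8.06 and 8.14 at 2 h and 9.83, 10.00 and 10.18 at 24 h (log2 difference 1.93, SE 0.11, adjusted p = 4e-11), and the corneal keratin Krt12 rose by 0.67 ± 0.12. Pigment epithelium and melanocyte genes had 3 of 22 higher and 5 lower (1 and 1 without the block), against 14.2% and 14.0% of all genes. Gpnmb, a glycoprotein of melanosomes and phagocytes, rose from 8.57, 8.55 and 8.64 to 9.84, 9.89 and 9.92 (log2 difference 1.30, SE 0.09, adjusted p = 1.6e-09). Of 8 erythrocyte genes 4 were lower, against 14.0% of all genes, and 1 without the block. Alas2, the haem synthesis enzyme of red cell precursors, fell from 8.81, 8.72 and 9.07 to 7.53, 7.11 and 7.23 (log2 difference -1.58, SE 0.12, adjusted p = 2.3e-09) and was 6.26 ± 0.227 (SD, n = 3) at 7 d. Muscle genes had 1 of 23 higher and 1 lower, and lymphocyte genes 8 of 21 lower and 0 higher, with none called in either list without the block.

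Of 27 genes for water, ion transport and P2 receptors 3 were higher and 5 lower, near the 14.2% and 14.0% of all genes. Without the block 1 and 1 were called, and Car14 had the largest change. P2ry2, the receptor that INS37217 activates, measured 5.36, 5.24 and 5.30 at 2 h and 5.33, 5.43 and 5.31 at 24 h and was not called (log2 difference 0.06, SE 0.10, adjusted p = 0.69). Among the largest risers outside the lists were Gcg, the glucagon precursor, at 4.19, 4.13 and 4.02 at 2 h and 5.69, 6.36 and 6.63 at 24 h (log2 difference 2.11, SE 0.16, adjusted p = 2.7e-09), and Lrrc2, a leucine-rich repeat protein, at 5.74, 6.34 and 6.22 at 2 h and 7.75, 8.36 and 8.62 at 24 h (log2 difference 2.14, SE 0.13, adjusted p = 1.1e-10). Gcg was back at 4.23 ± 0.14 (SD, n = 3) at 7 d.

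The same 24 h minus 2 h difference was then set against that in the INS37217 retinas, which share no array with the saline groups. The test was the interaction in the same fit, the saline difference minus the INS37217 difference. It called 242 probe sets (1.07%) and 108 of 12393 genes (0.871%), 39 with the saline difference above and 69 with it below. Without the block 13 probe sets were called, and leaving out single arrays gave 109 to 248, with the lowest count without INS37217 24 h replicate 3 and 109 to 154 for 8 of the 12 arrays. For all other genes a difference between saline and INS37217 retinas was not shown, which does not show that they changed alike.

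Interferon-induced genes had a lower 24 h minus 2 h difference in saline than in INS37217 retinas where the interaction was called, in 12 of 31. The other 19 were not called, and the list's median was 0.92 in saline and 1.55 in INS37217 retinas. For Slfn4, a Schlafen gene of myeloid cells, the differences were 1.06 ± 0.15 (SE) and 3.82 ± 0.15 (interaction -2.76, SE 0.21, adjusted p = 4.9e-07). For Oasl2 they were 2.14 ± 0.11 and 3.73 ± 0.11 (interaction -1.59, SE 0.16, adjusted p = 2.3e-05), and for Ifit1 1.36 ± 0.14 and 3.10 ± 0.14 (interaction -1.74, SE 0.20, adjusted p = 0.00013). Rsad2, at -0.10 ± 0.13 in saline, differed by 1.52 ± 0.13 with the drug (interaction -1.62, SE 0.18, adjusted p = 9.7e-05). These 4 interactions were also called without the block. B2m, the class I light chain, rose by 1.0 ± 0.11 in saline and by 2.48 ± 0.11 with the drug (interaction -1.48, SE 0.16, adjusted p = 5.5e-05), which was not called without the block (adjusted p = 0.079).

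Immediate early genes fell further in saline than in INS37217 retinas where the interaction was called, in 10 of 40. Nr4a1 fell by 2.36 ± 0.10 in saline and differed by -1.43 ± 0.10 with the drug (interaction -0.93, SE 0.14, adjusted p = 0.0019). Ccn1 differed by -2.98 ± 0.11 and -2.07 ± 0.11 (interaction -0.90, SE 0.16, adjusted p = 0.0048). Both calls were lost without the block (adjusted p = 1.0 and 0.57). Socs3 differed by -0.86 ± 0.10 and -0.03 ± 0.10 (interaction -0.83, SE 0.14, adjusted p = 0.0036; 1.0 without the block). Maff, Il6, Lif and Edn2 showed no called interaction, with differences of -4.16 ± 0.16, -3.91 ± 0.24, -2.56 ± 0.11 and 2.76 ± 0.12 in the INS37217 retinas.

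Lens genes rose further in saline than in INS37217 retinas where the interaction was called, in 10 of 21. The list's medians were 0.53 and 0.05. Crygd differed by 1.31 ± 0.11 in saline and by -0.01 ± 0.11 in INS37217 retinas (interaction 1.31, SE 0.16, adjusted p = 0.00029). Its means at 2 h and 24 h in the INS37217 retinas were 11.26 and 11.26, against 9.89 to 10.32 on the saline 2 h arrays. The interactions of Crygd and Crygf were called without the block as well (adjusted p = 0.026 and 0.039). For photoreceptor genes the medians in saline and INS37217 retinas were -0.33 and -0.42 for rods and -0.45 and -0.67 for cones.

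**Figure D5:**
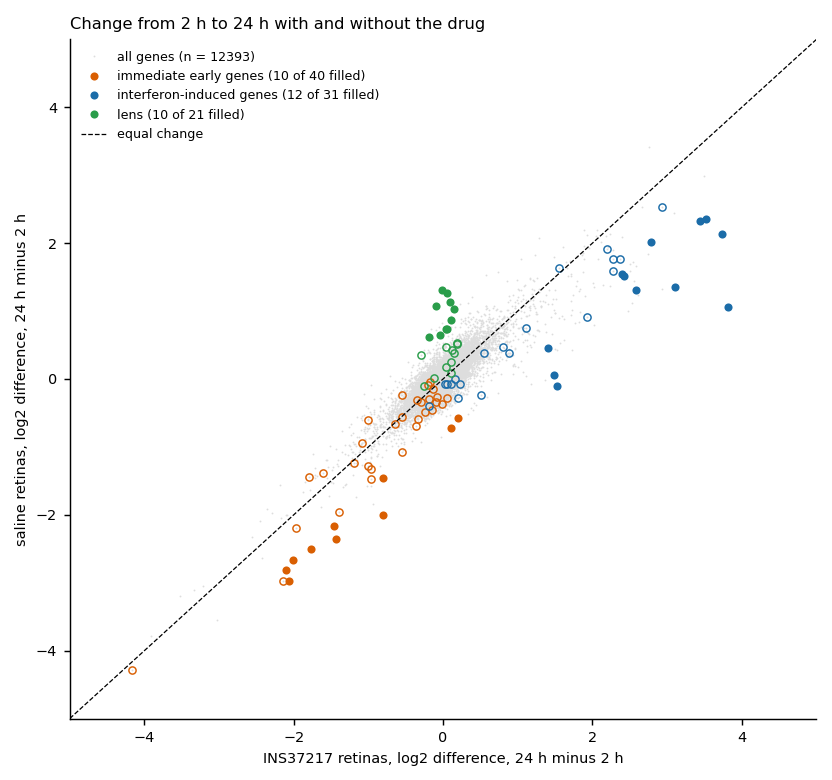
Log2 difference, 24 h minus 2 h, in saline retinas (vertical axis) against INS37217 retinas (horizontal axis) for 12393 genes in grey, with immediate early, interferon-induced and lens genes in colour; filled points have a called interaction and the dashed line marks equal change. The filled lens genes lie above the line near 0 on the horizontal axis, and the filled interferon-induced genes lie to the right of it.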

How the data were processed

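RNA of pooled mouse retinas was hybridised to Affymetrix arrays, 3 for each of 6 groups. The deposited log2 values were made by the authors with RMA, per the submitters' processing notes; no version or setting of it is given there, and RMA gives no detection call. Background correction and quantile normalization by RMA compress low signals, so fold changes of weakly expressed genes may be understated. Values were used as deposited. Groups were taken from the sample titles. The source names of saline 7 d replicate 2 and of 8 of the 9 INS37217 arrays do not match their titles. None of these was among the 6 arrays compared, but the interaction uses INS37217 arrays.

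After 64 control probe sets were left out, a linear model with 6 group means and the replicate number as a block was fitted to 22626 over all 18 arrays (lmFit, then eBayes, from limma 3.58.1 under R 4.3.3), with Benjamini-Hochberg adjustment over all of them. The residual and prior degrees of freedom were 10 and 10.5. The same-numbered saline arrays of both times deviated together from their group means (correlations 0.70, 0.435 and 0.62), which was taken as pairing; replicates 2 and 3 also correlated across numbers (0.406 and 0.432), while those with replicate 1 were -0.672 to -0.501, so the block mainly separates replicate 1; the labels do not say what the numbers stand for. With 3 arrays per group their number limits the precision. The procedure was also run on simulated data. These were drawn from the same model with the replicate block, so they cannot show whether the block holds for these arrays.

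Names came from GEO's platform table and a RefSeq gene table (GRCm38.p6): 20380 probe sets had 1 gene, 691 several and 1555 none, and only the first were named. The members and the 43 gene lists were chosen with earlier results of these data known, and no list was tested. Named were the 15 largest risers and 15 largest fallers among called genes whose groups did not overlap, members among the 6 of largest change in each list, the 10 largest interactions, and Gfap, Fgf2, Edn2, Lif, Stat3, Socs3, Fos, Egr1, Ccl2, Lcn2, Glul, Aqp4 and P2ry2. One further gene of that list is not reported here. Aif1, Cd74, Cdk1, Cebpd, Ciita, Clcf1, Csf1r, Cx3cr1, Egr2, Elane, Gbp2, Gnat1, H2-Aa, H2-Ab1, H2-DMa, Hc, Ifit3, Il11, Il33, Jun, Kcnj10, Mki67, Mpo, Ndc80, Neurod1, Nfkbib, Nfkbie, Rbp3, Sag, Slc1a3, Sox2, Sox9, Srf, Tnfaip3 and Tnip1 were chosen after their values were seen. Alternatives tried were no block, quantile normalization again, equal medians, a filter at the median level, a trended robust prior, replicates 2 and 3 only, the 6 arrays alone, gene means and each array left out.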

Additional observations from a re-analysis of the deposited data

Results flagged for a closer look

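The change from 2 h to 24 h differed between saline and INS37217 retinas by the limma interaction (adjusted p under 0.05) for 31 of the genes named. Values are the saline difference minus the INS37217 difference in log2 units.

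Interferon-induced and related genes with the saline difference below were Slfn4 (-2.76), Ifit1 (-1.74), Rsad2 (-1.62), Oasl2 (-1.59), B2m (-1.48), Iigp1 (-1.43), Ifit3 (-1.27), Usp18 (-1.15), Rtp4 (-1.11), Igtp (-0.77) and Parp12 (-0.65).

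Leukocyte, chemokine and matrix genes with the saline difference below were S100a9 (-1.60), S100a8 (-1.41), Ccl12 (-0.86), Lyz2 (-0.77) and Mmp3 (-1.38).

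Genes that fell further in saline retinas were Egr2 (-1.20), Nr4a1 (-0.93), Ccn1 (-0.90), Cebpb (-0.90), Socs3 (-0.83), Zfp36 (-0.74), Egr1 (-0.71), Fos (-0.66) and Nfkbiz (-0.62).

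The saline difference was above that with INS37217 for Crygd (1.31), Bfsp1 (1.17), Crygf (0.89), Syt1 (0.83), Icam1 (0.65) and Opn1sw (0.64).

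Of these 31 genes, 16 were called with any 1 of the 12 arrays left out. Without the replicate block 6 were called: Slfn4, Ifit1, Rsad2, Oasl2, Crygd and Crygf. Opn1sw was called in 0 of the 12 fits that left out an array, Egr1, Fos and Lyz2 in 1, and Ccl12, Nfkbiz, Parp12 and Zfp36 in 2. S100a8 was called in 3 and Igtp in 4.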

How the results depend on the processing

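Of 6564 probe sets called, 1714 were called without the replicate block (1051 higher, 663 lower), and 1100 on the 6 arrays alone without it (708 and 392). A filter at the median level left 1860 called lower. Leaving out single arrays gave 4360 to 6757 calls, 2557 to 3704 higher and 1803 to 3053 lower, with the fewest without saline 2 h replicate 2. Averaging the probe sets of a gene gave 3810 called genes against 3489.

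The interaction, called for 242 probe sets, was called for 13 without the block and for 109 to 248 with single arrays left out. The count was 109 to 154 without INS37217 24 h replicate 2 or 3, INS37217 2 h replicate 3, any saline 24 h array, or saline 2 h replicate 2 or 3.

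The beta-actin 3 prime minus 5 prime difference was -0.24 within replicate number 1 and -0.56 within number 3, against -0.43 for all arrays, and -0.48 to -0.38 with single arrays left out. That of Gapdh was -0.30 to -0.17 with single arrays left out.

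Without the block, calls were lost for Psma4, Slc1a3, Cxcl12, Gap43, Gbp2, Arg1, Impg1, Neurod1, Cebpd, H2-DMa, Hc and Nfkbie, and for no other named gene. On the 6 arrays alone without it, Crx, Stat3, Il33 and Cryaa lost theirs too (adjusted p = 0.12, 0.073, 0.097 and 0.16). Nfkbie also lost its call with the robust prior (adjusted p = 0.057), quantile normalization again (0.14) and the 6 arrays with the block (0.076). With replicates 2 and 3 only, Cryaa, Neurod1 and Gbp2 lost their calls and Gnat1 and Aqp4 gained one. The Vcl call was lost when its probe sets were averaged. No called difference of a named gene reversed in any alternative. The cause of these changes was not tested. RMA values carry no detection call.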

Other observations

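The counts in the groups that follow stand against 14.2% of all genes called higher and 14.0% called lower, and the values describe single members. Of 26 integrated stress and amino acid genes, 8 were called higher and 7 lower (4 and 3 without the block). Eif4ebp1, a brake on translation, rose from 6.43, 6.51 and 6.35 to 7.14, 7.08 and 7.87 (log2 difference 0.93, SE 0.13, adjusted p = 2e-05). Trib3, a pseudokinase induced by ATF4, fell from 7.91, 7.56 and 7.61 to 6.81, 6.63 and 6.80 (log2 difference -0.95, SE 0.11, adjusted p = 1.8e-06). Of 25 death and p53 genes, 4 were called higher and 6 lower (1 and 3 without the block). The cell cycle inhibitor Cdkn1a fell from 8.15, 7.97 and 8.14 to 7.34, 6.97 and 7.17 (log2 difference -0.93, SE 0.12, adjusted p = 4.4e-06), and the initiator caspase Casp8 rose by 0.53 ± 0.10. No group of these 4 genes overlapped between the times.

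Of 28 glycolysis and hypoxia genes, 3 were called higher and 6 lower (0 and 2 without the block). Adm, adrenomedullin, fell from 5.95, 5.70 and 5.94 to 4.77, 4.78 and 5.10 (log2 difference -0.98, SE 0.11, adjusted p = 1.5e-06), and Pfkfb3, which drives glycolysis, fell by 0.72 ± 0.10. Of 20 cholesterol synthesis genes, 3 were called higher and 5 lower (1 and 1 without the block), and the sterol isomerase Ebp rose from 7.37, 7.57 and 7.66 to 8.53, 8.98 and 9.03 (log2 difference 1.31, SE 0.14, adjusted p = 5.4e-07). Of 29 ribosome biogenesis genes, 12 were called higher and 1 lower, but 1 and 0 without the block. Of 27 cytoskeletal and contractile genes, 7 were called higher and 5 lower (2 and 1 without the block), against the same shares of all genes, with Vim as the largest change. The focal adhesion protein Vcl fell by 0.72 ± 0.11, a call lost when its probe sets were averaged (-0.10).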
